A study of Mus musculus with 160 samples.

Results

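The SoxF group is the subset of Sox transcription factors made up of *Sox7*, *Sox17* and *Sox18*. They were taken from the count table by gene identifier and are 3 of its 46078 genes. All 3 had counts in endothelial pools.

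SoxF proteins bind DNA through a high-mobility-group (HMG) box and activate transcription in endothelial cells, where the members act partly in place of each other. *Sox17* is best known for arterial identity, upstream of and together with Notch signalling, and for the endothelium of the embryonic aorta from which the first hematopoietic stem cells arise. *Sox18* is best known for the start of lymphatic development and *Sox7* for vascular development and early blood formation. SoxF members lie downstream of VEGF receptors and ETS factors, and are known to fall as cells leave the endothelium for a blood fate.

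RNA was sequenced from pools of 20 cells sorted from the aorta-gonads-mesonephros (AGM) region of mouse embryos, the site where these stem cells form. All embryos were Gata3-GFP +/-, a knock-in that places GFP at 1 *Gata3* allele, so every population carried the same altered allele and no wild-type embryos were compared. Endothelial cells (ECs, VE-cadherin-positive and without CD41 or CD45) and hematopoietic cells (HCs, with CD41 or CD45) came from E10.5 embryos, and mesenchymal cells (MCs, sorted by PDGFRb) and sympathetic nervous system cells (SNS, sorted by p75) from E11.5 embryos. Each was sorted into Gata3-GFP+ and Gata3-GFP- pools, with 20 pools per population, which are called GFP+ and GFP- here.

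After quality limits 7 of 160 pools were left out, and those used were 19 GFP+ and 20 GFP- EC pools, 20 and 20 HC pools, 20 and 17 MC pools, and 18 and 19 SNS pools, in the order GFP+ and GFP-. These held 1400824 to 16004756 counts on genes, with a median of 3801233. Cells of several embryos were pooled. By the paper, the EC and HC cells came from far fewer biological replicates than there are pools, and each population was sorted again into its pools. Each n given here counts pools, not replicates. The columns do not tie a pool to an embryo or sort. The p-values therefore measure the spread between pools and may be too small for a spread between embryos. Stage and cell type cannot be told apart between the E10.5 and E11.5 populations. In pools of 20 cells, fewer cells with an mRNA and less of it per cell cannot be told apart either.

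*Gata3* itself was higher in GFP+ ECs (log2 fold change 2.66, SE 0.216), HCs (2.89, SE 0.258) and SNS pools (1.86, SE 0.311). In MCs it was not (-0.66, SE 0.522, edgeR adjusted p = 0.496). Marker lists of the 4 cell types were summed in each pool. In 13 pools the list of another cell type was above that of the labelled one. No EC pool was among them. They were 1 GFP+ HC pool, with more sympathetic and neural crest marker RNA than its own, and 3 pools of each MC and SNS population, the MC pools with more sympathetic and the SNS pools with more mesenchymal marker RNA. In each of these 4 populations the 3 pools were the last 3 columns. Without them *Gata3* was higher in GFP+ MCs (log2 fold change 1.88, SE 0.220, edgeR adjusted p = 8.98e-08). SoxF levels, tests and bounds that rest on these pools are given below with and without them.

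The members lie on separate chromosomes (GRCm38, GENCODE M21). *Sox7* (ENSMUSG00000063060) spans 63943673 to 63950732 of chromosome 14 on the + strand, with 1 annotated transcript of 3299 bases. *Sox17* (ENSMUSG00000025902) spans 4490931 to 4497354 of chromosome 1 on the - strand, with 8 transcripts whose exons cover 4772 bases. *Sox18* (ENSMUSG00000046470) spans 181669836 to 181671640 of chromosome 2 on the - strand, with 1 transcript of 1620 bases. *Sox17* shares 804 exonic bases, 16.8% of its own, with *Gm37587*, a processed transcript on the opposite strand, and the strand setting of the counting is not given in the sources used here. *Gm37587* was at 6.06 ± 5.86 CPM (SD, n = 19) in GFP+ ECs and 0.486 ± 1.65 (n = 20) in GFP- ECs, against 241 and 71.2 for *Sox17*. Reads in the shared bases cannot be told apart between these genes.

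All 3 members had their highest levels in ECs and were near or at 0 in MCs and SNS cells. Levels are given as CPM, a gene's counts relative to all counts on genes in its pool, after TMM scaling, a method that sets most genes equal between pools.

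**Figure D1:**
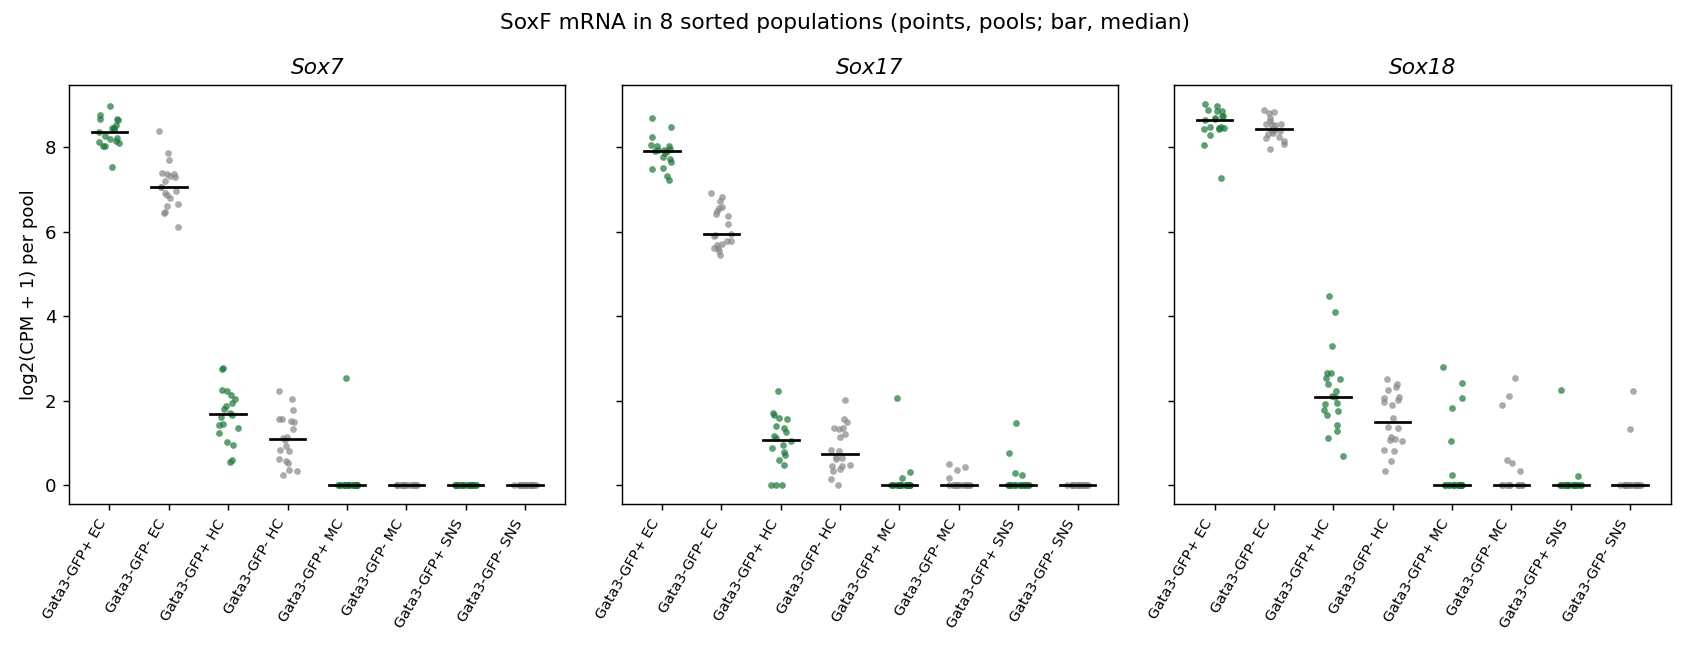
Levels of *Sox7*, *Sox17* and *Sox18* as log2(CPM + 1) (vertical axis) in the 8 sorted populations (horizontal axis), with 1 point per pool, green for GFP+ and grey for GFP-, and the median as a bar. All EC pools stand above every HC, MC and SNS pool. The medians of MC and SNS populations are 0 for each member.

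Between GFP+ and GFP- ECs the members differed: *Sox17* and *Sox7* were higher in GFP+ ECs, and *Sox18* was not called. This comparison asks which endothelial regulators go with *Gata3* expression. A gene was called when edgeR's adjusted p was below 0.01 and its log2 fold change was above 0.1 in size.

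*Sox17* ranged in GFP+ ECs from 147.8 through a median of 239 to 410.4 CPM, from 212 to 1679 counts per pool. In GFP- ECs it ranged from 42.5 through 60.1 to 119.03 CPM, from 96 to 343 counts. The groups did not overlap. All 19 GFP+ pools were above all 20 GFP- pools. How many of all genes tested separated in this way was not counted. The means were 241 ± 63.8 (SD, n = 19) and 71.2 ± 24.3 (n = 20), a log2 fold change of 1.73 (SE 0.134, 95% interval 1.46 to 1.998, edgeR adjusted p = 2.57e-14).

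*Sox7* ranged in GFP+ ECs from 184 through 324.5 to 502 CPM, from 407 to 2249 counts. In GFP- ECs it ranged from 67.5 through 131.9 to 334 CPM, with at most 1177 counts. The groups overlapped, mainly through a few high GFP- pools: 17 of 20 GFP- pools were below every GFP+ pool, and 9 of 19 GFP+ pools were above every GFP- pool. The means were 332 ± 74.3 and 144.7 ± 60.3, a log2 fold change of 1.16 (SE 0.139, 95% interval 0.88 to 1.45, edgeR adjusted p = 3.14e-09).

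*Sox18* ranged in GFP+ ECs from 152.7 through 399 to 519 CPM, from 219 to 2125 counts. In GFP- ECs it ranged from 248 through 345 to 471 CPM, from 506 to 2582 counts. The groups overlapped over most of their range, and 1 GFP+ pool was below every GFP- pool. The means were 384 ± 86.9 and 352 ± 60.9, a log2 fold change of 0.091 (SE 0.0953, edgeR adjusted p = 0.448). The 95% interval of this difference ran from -0.10 to 0.28. Thus 2 of 3 members were called higher and 0 lower, where 19.5% of the 15073 genes tested were called higher and 16.5% lower.

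**Figure D2:**
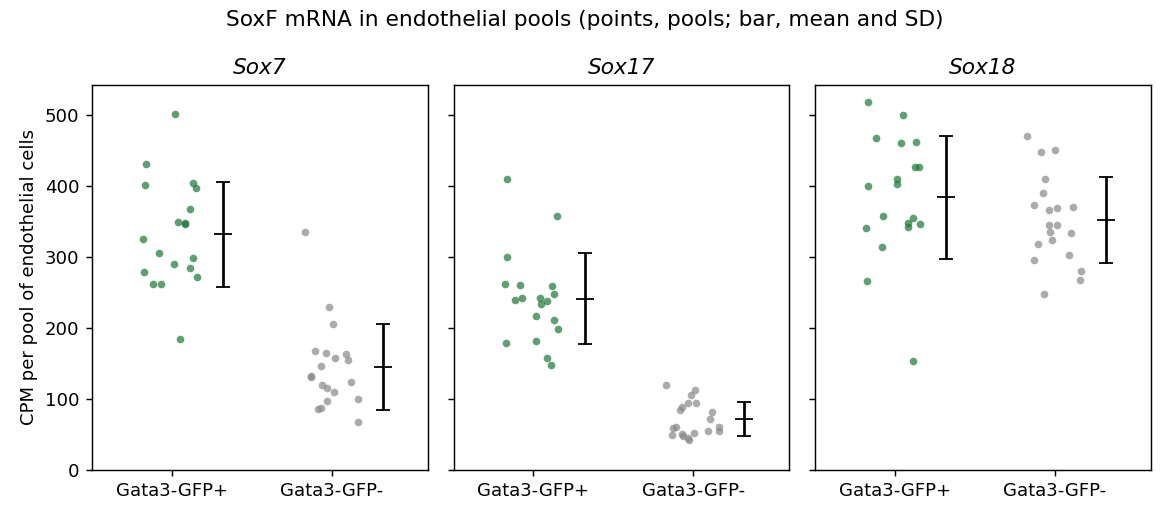
CPM of each SoxF member (vertical axis, from 0) in GFP+ (green) and GFP- (grey) EC pools, with 1 point per pool and the mean with its SD beside the points. *Sox17* pools do not overlap between the groups, the lowest GFP+ pool at 147.8 and the highest GFP- pool at 119.03, while *Sox18* pools overlap over most of their range.

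The calls of *Sox7* and *Sox18* depended on what the levels were set against. ERCC RNAs are spike-ins added to every pool, and scaling to them keeps differences in total RNA. The log2 ratio of gene to ERCC counts was 5.95 ± 0.443 (SD, n = 19) in GFP+ ECs and 6.66 ± 0.415 (n = 20) in GFP- ECs. On the ERCC scale the median log2 fold change of all genes tested was -0.60, against 0.10 on the TMM scale, and 951 genes were called higher and 5685 lower, against 2932 and 2492. There *Sox17* was still called higher (log2 fold change 0.95, SE 0.197, edgeR adjusted p = 6.87e-05). *Sox7* was at 0.43 (SE 0.205, edgeR adjusted p = 0.0694) and not called, with a 95% interval of 0.021 to 0.848, and *Sox18* was called lower at -0.69 (SE 0.149, edgeR adjusted p = 0.000121). On both scales *Sox18* lay near the median of all genes, and *Sox17* and *Sox7* above it.

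**Figure D3:**
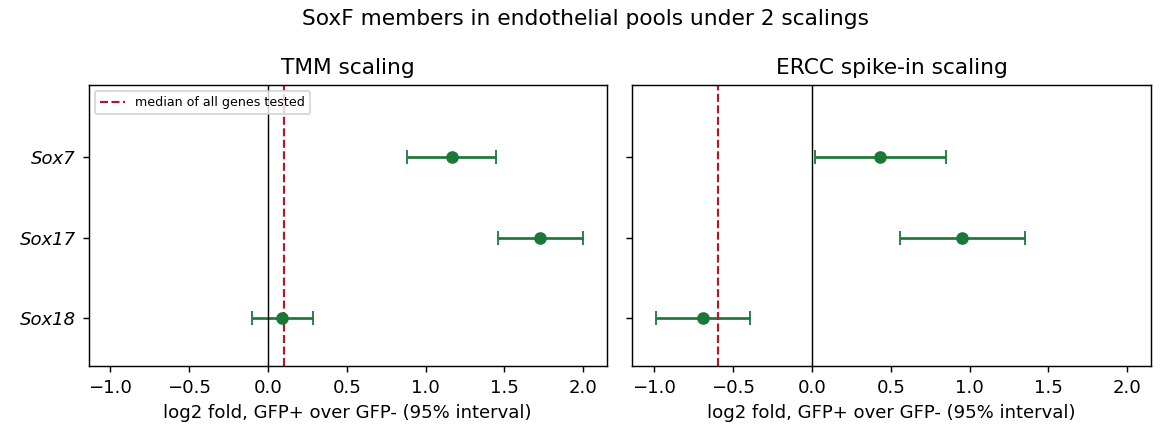
Log2 fold changes of the SoxF members between GFP+ and GFP- ECs (horizontal axis, with 95% intervals) under TMM scaling (left) and ERCC spike-in scaling (right). The dashed line is the median of all genes tested, at 0.10 and -0.60. *Sox18* lies beside that line in both panels.

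Ratios between members within a pool do not depend on the scaling. All 3 ratios differed between the EC populations (two-sided permutation tests, 100000 resamples, adjusted over the 3 ratios). *Sox17* relative to *Sox18* was higher in GFP+ ECs by 1.69 on the log2 scale (SE 0.131), a fold of 3.22. All 19 GFP+ pools were above every GFP- pool in this ratio (permutation adjusted p = 1.5e-05, from the smallest p that 100000 resamples can give). *Sox7* relative to *Sox18* was higher by 1.16 (SE 0.162, permutation adjusted p = 1.5e-05), with 15 of 19 GFP+ pools above every GFP- pool. *Sox17* relative to *Sox7* was higher by 0.53 (SE 0.157), a fold of 1.44, with only 1 GFP+ pool above every GFP- pool but 17 of 19 above their median (permutation adjusted p = 0.0022).

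Levels per length gave the order of the members. CPM per kilobase of annotated exon was 237 ± 53.6 for *Sox18*, 100.55 ± 22.5 for *Sox7* and 50.6 ± 13.4 for *Sox17* in GFP+ ECs (SD, n = 19). In GFP- ECs it was 217 ± 37.6, 43.9 ± 18.3 and 14.9 ± 5.09 in the same order (n = 20). By annotated exon length *Sox18* was therefore the most abundant and *Sox17* the least abundant SoxF mRNA in both populations. With this length the order held in every one of the 39 EC pools. Each of the 6 paired differences passed (sign-flip permutation tests on log2(CPM per kilobase + 1), permutation adjusted p = 1e-05 in each, the smallest they can give). *Sox18* was 4.61-fold above *Sox17* in GFP+ ECs and 14.2-fold above it in GFP- ECs. With the longest transcript as the length, which is 3242 bases for *Sox17*, these folds were 3.15 and 9.85, and *Sox7* was above *Sox17* in 18 of 19 and 17 of 20 pools.

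Summed per length, the members stood at 388 ± 69.7 CPM per kilobase in GFP+ ECs and 276 ± 49.6 in GFP- ECs. *Sox18* made up 60.6% ± 6.56 of this sum (SD over pools) in GFP+ ECs and 78.9% ± 5.03 in GFP- ECs. *Sox7* made up 26.3% ± 5.67 and 15.7% ± 4.67, and *Sox17* 13.1% ± 2.40 and 5.39% ± 1.46. The *Sox17* share did not overlap between the populations, with a lowest GFP+ pool at 9.37% and a highest GFP- pool at 8.29%. The shares rest on the annotated exon lengths, carry the same differences as the ratios and were not tested again.

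**Figure D4:**
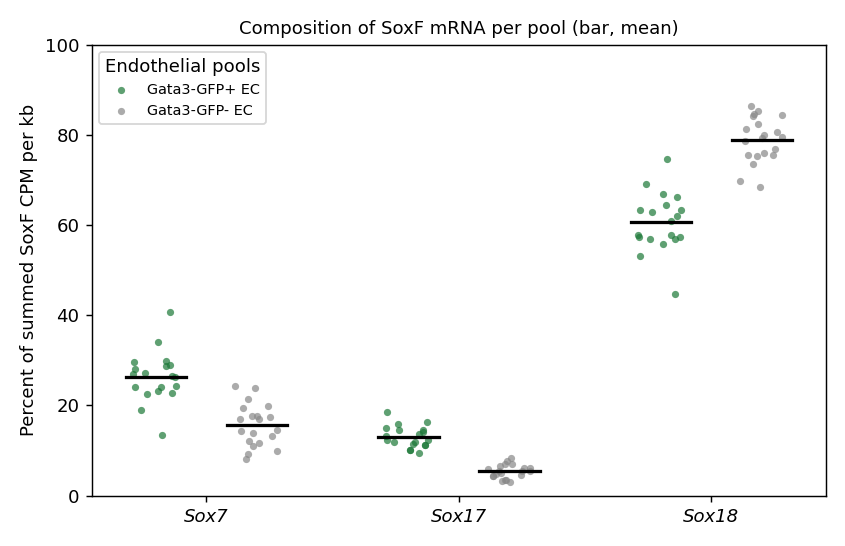
Share of each member in the summed SoxF CPM per kilobase (vertical axis, percent) in each EC pool, green for GFP+ and grey for GFP-, with the mean as a bar. *Sox18* holds the largest share in every pool, from 44.6% to 86.3%, and is lower in share in GFP+ ECs.

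The genes that SoxF proteins are known to act with in arteries and veins also differed between the EC populations. Of 16 arterial and Notch genes, 15 were called higher in GFP+ ECs and 0 lower, with a median log2 fold change of 2.52 against 0.10 for all genes tested. On the ERCC scale 14 were called higher and *Hes1*, a Notch target, lower, where 951 of 15073 genes were called higher and 5685 lower. The largest were *Gja5* and *Gja4*, connexins of arterial endothelium, *Hey2*, a Notch target that represses venous fate, and *Bmx*, a kinase of arterial endothelium. *Gja5* was at 892 ± 176 CPM in GFP+ and 16.1 ± 20.2 in GFP- ECs (log2 fold change 5.78, SE 0.388), and *Hey2* at 176 ± 38.8 and 3.68 ± 4.30 (5.65, SE 0.315). *Bmx* changed by 4.98 (SE 0.436) and *Gja4* by 3.93 (SE 0.353). *Dll4*, a Notch ligand that SOX17 is known to activate, stood at 179.9 ± 47.4 and 30.9 ± 20.7 CPM (2.50, SE 0.224). It is named as a gene set for the correlations below, not for the size of its change.

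Of 8 venous and lymphatic genes 7 were called lower and 0 higher, with a median log2 fold change of -3.07. On the ERCC scale all 8 were called lower, where 5685 of 15073 genes were. The largest were *Nrp2*, a receptor of veins and lymphatics, at 13.4 ± 13.5 and 223 ± 79.4 CPM (-4.09, SE 0.378), *Aplnr*, the apelin receptor (-3.55, SE 0.468), *Nr2f2*, a regulator of venous identity (-3.51, SE 0.365), and *Prox1*, the lymphatic regulator that SOX18 is known to switch on (-3.36, SE 0.540).

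Of 12 partners and upstream regulators of SoxF, 6 were called higher and 4 lower, with a median log2 fold change of 0.19. On the ERCC scale 1 was called higher and 5 lower, where 951 of 15073 genes were called higher and 5685 lower. The largest changes were in *Vegfa*, the ligand of the VEGF receptors (3.63, SE 0.331), *Etv2*, an ETS factor of early endothelium (-3.57, SE 0.929), *Nr2f2*, also listed above, and *Ets1* (-1.21, SE 0.151). *Erg*, an ETS factor of mature endothelium, was higher by 0.36 (SE 0.107, edgeR adjusted p = 0.00467) and *Rbpj*, the DNA-binding partner of Notch, was at 0.090 (SE 0.151, edgeR adjusted p = 0.647). *Erg* and *Rbpj* were chosen after their values were seen.

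Of 16 Sox genes of other groups, 7 had enough counts to be tested in ECs. *Sox6* (log2 fold change 5.16, SE 0.349), *Sox5* (3.25, SE 0.492) and *Sox13* (2.30, SE 0.177), which form the SoxD group, and *Sox4* of the SoxC group (1.58, SE 0.170) were called higher, and *Sox11* of the SoxC group lower (-0.67, SE 0.142), also on the ERCC scale. The *Sox6* fold set 65.5 ± 23.9 CPM against 1.74 ± 2.37.

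**Figure D5:**
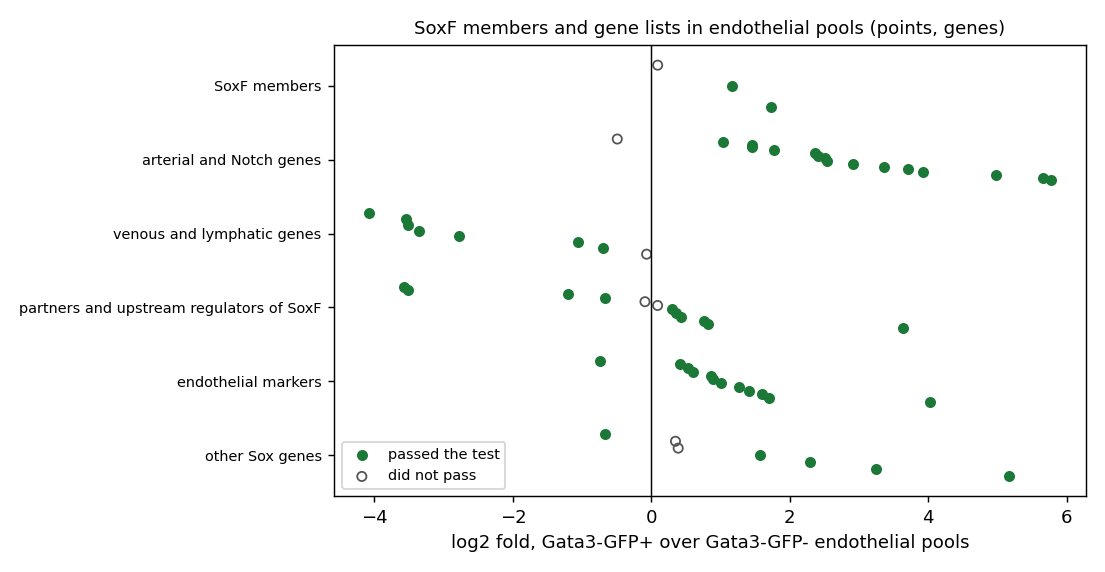
Log2 fold changes between GFP+ and GFP- ECs (horizontal axis) for the SoxF members and 5 gene lists (rows), with 1 point per gene tested, filled where it passed the test. *Sox7* and *Sox17* lie at 1.16 and 1.73, at the low end of the arterial and Notch genes called higher, and *Sox18* lies at 0.091.

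Endothelial markers moved with *Sox7* and *Sox17*: 11 of 12 were called higher in GFP+ ECs, with a median log2 fold change of 0.95, and *Robo4*, an endothelial guidance receptor, lower. On the ERCC scale 5 were called higher and *Robo4* lower, where 951 of 15073 genes were called higher and 5685 lower. *Cdh5*, which encodes the sorted VE-cadherin, was higher by 1.27 (SE 0.102). *Vcam1*, also among the 11, had a mean of only 3.81 CPM over both EC populations. The summed level of the list was 7313 to 9933 CPM in GFP+ pools and 3926 to 6246 in GFP- pools.

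Markers of other cell types moved with the GFP sort as well, where 19.5% of the 15073 genes tested were called higher and 16.5% lower. Of 10 mesenchymal markers, 7 were tested and 7 called higher in GFP+ ECs, and the summed level was 26.03 to 1583 CPM there and 3.87 to 72.1 in GFP- ECs. *Pdgfrb* was at 3.29 ± 4.15 and 0.124 ± 0.179 CPM. Of 10 hematopoietic markers 8 were tested and 3 called higher, with sums of 9.82 to 243 and 8.83 to 38.2 CPM. Of 12 sympathetic and neural crest markers 4 were tested and 3 called higher, with sums of 80.99 to 189.7 and 1.61 to 30.4 CPM. On the ERCC scale 6 mesenchymal, 3 hematopoietic and 2 sympathetic and neural crest markers were called higher and 1 hematopoietic marker lower. There 951 of 15073 genes were called higher and 5685 lower. No gene of the 3 lists was at 0 in every GFP+ EC pool. Without the GFP+ pool with 1583 CPM of mesenchymal markers, the next being at 308, the log2 fold changes were 1.70 for *Sox17*, 1.15 for *Sox7* and 0.083 for *Sox18*, with the same calls. The part of the other markers in the SoxF differences was not tested.

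Among single pools of 1 EC population the members showed no relation that passed on the TMM scale. On the ERCC scale some did by Pearson's r, with r = 0.74 for *Sox7* and *Sox17* in GFP+ and 0.68 in GFP- ECs. Both genes of a pool are then divided by the same spike-in total, and these relations are listed at the end. The values below are on the TMM scale. Over 24 relations, taken within GFP+ (n = 19) and GFP- (n = 20) pools separately, the smallest permutation adjusted p was 0.285 for Pearson's r and 0.112 for Spearman's rho. *Sox7* and *Sox17* had r = 0.40 (permutation p = 0.0868) and rho = 0.48 (permutation p = 0.0370) in GFP+ ECs, and r = 0.33 (p = 0.151) and rho = 0.28 (p = 0.225, permutation tests) in GFP- ECs. Without the 2 pools farthest from the *Sox7* median these r were 0.64 and 0.072. *Sox17* and *Sox18* had r = 0.53 and rho = 0.32 in GFP+ ECs (permutation p = 0.0238 and 0.185), and r = 0.38 without 2 pools.

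*Runx1*, the regulator of the endothelial-to-hematopoietic transition, ranged from 0.446 to 69.5 CPM over GFP+ EC pools. Its r with *Sox7* was -0.52 and its rho -0.63 there (permutation p = 0.0221 and 0.00467, adjusted 0.285 and 0.112), and r was -0.48 without the 2 pools farthest from its median. With *Sox17* its r was -0.38 and with *Sox18* -0.035 (permutation adjusted p = 0.342 and 0.935). In GFP- ECs, where *Runx1* stayed at or below 6.55 CPM, its r was 0.019 with *Sox7* and -0.20 with *Sox17* (permutation adjusted p = 0.935 and 0.802). *Gata3* had r of -0.085, -0.43 and -0.44 with *Sox7*, *Sox17* and *Sox18* in GFP+ ECs (permutation adjusted p = 0.919, 0.342 and 0.342), and without the 2 pools farthest from its median -0.24, -0.34 and 0.21. The negative r of *Gata3* with *Sox18* thus rests on 2 pools. On the ERCC scale the 3 values were 0.61, 0.41 and 0.30 (permutation adjusted p = 0.0204, 0.154 and 0.282). Without the 2 pools farthest from the *Gata3* median on that scale they were 0.083, -0.29 and 0.11. None of these relations was detectable after adjustment with this number of pools.

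HCs held between 0.553% and 1.33% of the EC levels of the 3 members. *Sox7* ranged from 0.461 through a median of 2.20 to 5.79 CPM in GFP+ HCs and from 0.177 through 1.13 to 3.66 in GFP- HCs. *Sox17* ranged from 0 through 1.11 to 3.67 and from 0 through 0.664 to 3.05 CPM. *Sox18* ranged from 0.613 through 3.275 to 21.3 and from 0.262 through 1.8 to 4.66 CPM. The GFP+ and GFP- ranges overlapped for each member, and no HC pool reached the lowest EC pool.

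As shares of the mean of both EC populations, GFP+ HCs held 1.03% of the *Sox7*, 0.772% of the *Sox17* and 1.33% of the *Sox18* level, and GFP- HCs 0.553%, 0.606% and 0.591%. Without the pool against its label GFP+ HCs held 1.0024%, 0.770% and 1.33%. *Cdh5* stood at 1.54% and 0.595% of its EC level in the same pools, and the 12 endothelial markers at a median of 2.87% and 1.04%. The lowest marker share was 1.004% (*Mmrn2*) in GFP+ and 0.452% (*Cldn5*) in GFP- HCs. The highest was 263% in GFP+ and 30.8% in GFP- HCs, both for *Vcam1*, whose mean over both EC populations was 3.81 CPM.

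All 3 members were called higher in ECs than in HCs, where 22% of the 20080 genes tested were called higher and 27.6% lower. The log2 fold changes were 6.95 for *Sox7* (SE 0.243), 6.98 for *Sox17* (SE 0.244) and 6.85 for *Sox18* (SE 0.295), with edgeR adjusted p = 2.38e-47, 1.02e-55 and 4.37e-49. Without the pools that went against their label they were 6.99, 7.003 and 6.87. *Sox17* passed the count filter of this fit through the EC pools. Of the endothelial markers 11 of 12 were called higher in ECs, with a median of 5.27.

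Between GFP+ and GFP- HCs 0 of the 2 members tested were called, where 17.1% of 16200 genes were called higher and 9.53% lower. *Sox18* means were 4.91 ± 5.14 and 2.18 ± 1.36 CPM (SD, n = 20 and 20), a log2 fold change of 1.17 (SE 0.372, unadjusted p = 0.00308, edgeR adjusted p = 0.0113). DESeq2 called *Sox18* higher at 1.23 (adjusted p = 0.00388). *Sox7* means were 2.46 ± 1.49 and 1.32 ± 0.964 CPM (log2 fold change 0.88, SE 0.350, unadjusted p = 0.0162, edgeR adjusted p = 0.0448). *Sox17* reached 10 counts in 2 of 40 pools and was not tested. Its means were 1.21 ± 0.915 and 0.947 ± 0.776 CPM, and without a filter on counts its log2 fold change was 0.33 (SE 0.478, edgeR adjusted p = 0.648). With 0 to 52 counts of a member per HC pool the 95% intervals were wide, from 0.42 to 1.92 for *Sox18* and from 0.17 to 1.58 for *Sox7*.

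Here too other markers moved with the sort, where 17.1% of 16200 genes were called higher and 9.53% lower. In GFP+ HCs 7 of 11 endothelial markers tested were called higher and 1 lower, with summed levels of 136.65 to 699 CPM against 69.1 to 244. Of 10 mesenchymal markers 9 were called higher, with sums of 19.5 to 978 against 3.37 to 175 CPM. Of 11 sympathetic and neural crest markers tested 10 were called higher, with sums of 4.28 to 1719 against 0.593 to 12.998 CPM. Of 10 hematopoietic markers 2 were called higher and 5 lower, with a median log2 fold change of -0.61 and sums of 927 to 2060 against 1451 to 2309 CPM. Without the GFP+ pool at 1719, which is also the HC pool that went against its label, *Sox18* was at 1.13 (edgeR adjusted p = 0.0161) and *Sox7* at 0.81 (edgeR adjusted p = 0.0725). Their part in the SoxF values was not tested.

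The difference between the GFP effects in ECs and HCs was tested in 1 model. For *Sox18* it was -1.03 (SE 0.511, 95% interval -2.04 to -0.02, edgeR adjusted p = 0.114), and for *Sox7* 0.38 (SE 0.457, 95% interval -0.53 to 1.29, edgeR adjusted p = 0.570). For *Sox17* it was 1.32 (SE 0.469, 95% interval 0.39 to 2.24, edgeR adjusted p = 0.0219). *Sox17* passed the count filter of this fit through the EC pools, so its value rests on few HC counts. None of the 3 was called, where 8.13% of 20080 genes were called higher and 13.9% lower. With only the 4 EC and HC populations in the fit, *Sox17* was called at 1.26 (edgeR adjusted p = 0.00613) and *Sox18* at -1.06 (edgeR adjusted p = 0.00871). There too *Sox17* passed the count filter through the EC pools, so its call rests on few HC counts. Without the pools against their label the values over 8 populations were -1.01 for *Sox18*, 0.45 for *Sox7* and 1.31 for *Sox17*, with none called.

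In MCs and SNS cells SoxF counts were scattered over few pools. *Sox7* had 0 counts in all 17 GFP- MC, 18 GFP+ SNS and 19 GFP- SNS pools, and 27 counts in 1 of 20 GFP+ MC pools. Set against 3 counts over a whole population, the 95% upper limit for 0 counts under Poisson counting, *Sox7* was at least 7458-fold higher in GFP+ ECs than in GFP- MCs, and at least 3253-fold higher in GFP- ECs. Against GFP- SNS cells the *Sox17* bounds were at least 7287-fold and at least 2150.1-fold. When the pools against their label were left out, these bounds were at least 5661-fold, 2469-fold, 6258-fold and 1846-fold in the same order. They cover counting error only, and single MC and SNS pools with up to 27 counts of a member beside pools at 0 show a wider spread than that.

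*Sox17* had counts in 3 of 20 GFP+ MC, 4 of 17 GFP- MC, 4 of 18 GFP+ SNS and 0 of 19 GFP- SNS pools, with 14 counts in the highest pool. *Sox18* had counts in 6, 6, 2 and 2 of these pools, with 27 counts in the highest. No pool of the 74 held all 3 members. Mean levels were at most 0.864 CPM, the *Sox18* mean in GFP+ MCs, which is 0.235% of its EC level, and at most 1.016 CPM and 0.276% without the pools against their label, again *Sox18* in GFP+ MCs. The endothelial marker list had a median of 0.102% to 0.357% of the EC level in these 4 populations, and of 0.0935% to 0.172% without those pools.

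All 3 members were called higher in ECs than in MCs, where 22.2% of 20080 genes were called higher and 26.7% lower, and than in SNS cells, where 23.4% were called higher and 27.8% lower. The same calls held without the pools that went against their label. The members passed the count filter of this fit mainly through the EC pools. No MC or SNS population had more than 3 pools with 10 counts of a member. These calls therefore restate that the members were near or at 0 there. Between GFP+ and GFP- MCs *Sox18* was the 1 member tested (log2 fold change 0.25, SE 0.952, edgeR adjusted p = 0.914), where 2.21% of 16026 genes were called higher and 2.15% lower. Without the pools against their label it was at 0.23 (edgeR adjusted p = 0.913). The GFP effect on *Sox18* in ECs less that in MCs was -0.019 (SE 0.575, 95% interval -1.16 to 1.12, edgeR adjusted p = 0.99995) and was not called, where 8.17% of 20080 genes were called higher and 6.42% lower. It was 0.047 without the pools against their label (edgeR adjusted p = 0.987). *Sox17* and, in SNS cells, *Sox18* passed the count filter of the joint fit only through other populations, so their values in these cells are descriptions of few counts. For *Sox17* in MCs the difference was 0.57 (SE 3.04), and 0.68 (SE 1.87) without these pools. In SNS cells, where 2.01% of 16143 genes were called higher and 1.86% lower, no member reached 10 counts in 5 pools. The GFP effect on *Sox18* in ECs less that in SNS cells was 1.25 (SE 0.864, edgeR adjusted p = 0.276), where 12.2% of 20080 genes were called higher and 9.91% lower. Without the pools against their label it was 3.46 (SE 1.1045, edgeR adjusted p = 0.00994), a value that rests on 1 *Sox18* count over 15 GFP+ SNS pools and 34 counts in 2 of 16 GFP- SNS pools. For *Sox7* in MCs and SNS cells and *Sox17* in SNS cells no such difference is given, since a population had 0 counts. Of the 12 MC and SNS pools against their label 3 held SoxF counts, and without the 3 GFP+ SNS pools among them *Sox18* had 1 count over that population, against 12 with them.

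In the order of the 8 populations, 21 pairs of neighbours were compared (permutation tests on log2(CPM + 1), adjusted over the 21). *Sox7* and *Sox17* each had 3 steps that passed: GFP+ ECs above GFP- ECs, these above GFP+ HCs, and GFP- HCs above GFP+ MCs. *Sox18* had the second and the last of these steps but not the first (permutation adjusted p = 0.570). The step from GFP+ to GFP- HCs missed the threshold of 0.01 for *Sox7* and *Sox18* (permutation p = 0.00501 and 0.00879, adjusted 0.0117 and 0.0185). It also missed it for *Sox17* (permutation adjusted p = 0.570). No step among the MC and SNS populations passed. Those of *Sox7* could not, since they set populations at 0 against each other or against a population with counts in 1 pool. The same steps passed and missed without the pools against their label, with permutation adjusted p = 0.0200 for *Sox7* and 0.0250 for *Sox18* between the HC populations.

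The genes whose levels were most like the members' over all pools used were endothelial genes and other members. Likeness was Pearson's r of log2(CPM + 1) against 16434 genes, and the pools share 4 cell types and their libraries. *Sox7* was closest to *Sox17* and *Mmrn2* (r = 0.9825 each), then *Bcl6b*, *Cdh5* and *Ptprb* (0.980 to 0.976). *Sox17* was closest to *Sox7* (0.9825) and *Mmrn2* (0.9795), then *Bcl6b*, *Ptprb* and *Ushbp1* (0.9752 to 0.969). *Sox18* was closest to *Bcl6b*, *Sox7*, *Cdh5*, *Klhl4* and *Ushbp1* (0.971 to 0.967). The same 5 genes came first for each member without the pools against their label, at r of 0.9684 to 0.9824 for *Sox17*. *Mmrn2*, a matrix protein of endothelium, stood at 140.99 CPM in GFP- and 466 CPM in GFP+ ECs, and *Bcl6b*, an endothelial repressor, at 67.6 and 72.3 CPM.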

How the data were processed

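Smart-seq2 libraries with ERCC spike-ins were made from pools of 20 sorted cells and sequenced as single-end reads of 125 bases. The deposited values are raw HTSeq counts per gene, made by the authors without normalization or filtering. The paper names STAR and Ensembl release 81, whereas the submitters' processing notes name GSNAP, HTSeq 0.5.3p3 and mm10, and the strand setting is not given in the sources used here. Pools were assigned to populations by their column headers. Reads outside named genes stayed out of library sizes. Over all pools 11.8% of reads lay on no feature, 15.9% were ambiguous and 22.6% were not aligned. Of the paper's 5 limits for a pool 4 were applied: more than 500000 reads, more than 20% of them on genes, and less than 20% each from mitochondria and from spike-ins. The last, more than 8000 high coverage genes, was not, as high coverage is not defined there, but each pool used had at least 9888 genes with 10 or more counts. No columns were identical.

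A gene entered a fit when 5 or more of its pools held 10 or more counts. edgeR 4.0.16 (R 4.3.3) was used with TMM factors, robust quasi-likelihood tests and Benjamini-Hochberg adjustment over all genes tested. Calls needed an adjusted p below 0.01 with a log2 fold change above 0.1 in size. GFP comparisons used the pools of 1 cell type, and comparisons between cell types all 8 populations. Ratios, orders and correlations used two-sided permutation tests with 100000 resamples and a pseudocount of 1 in numpy 2.4.6 and scipy 1.17.1 under Python 3.11.15, with matplotlib 3.10.9 for figures. Alternatives were DESeq2 1.42.0, its size factors, ERCC size factors, other filters, all pools and joint fits. Leaving out pools high in other markers was added after seeing the data. Fits were tested on simulated counts, with changes set in genes drawn from all genes tested. The EC fit called 44.9% of 2-fold and 75% of 4-fold changes, with 1 false call. The fit of 8 populations, for ECs against HCs, called 45.3% and 77.6%, with 9 false calls. A difference that was not called may therefore have been missed. Positions came from GENCODE M21 (GRCm38). The members and gene lists were chosen with earlier results of these data known. Named by rule were the members, up to 4 called genes per list with the largest change, the 5 genes most like each member, *Gata3* and the sorting markers. Beyond this rule, *Dll4* and *Runx1* were set for the correlations, and *Erg*, *Rbpj*, *Sox11*, *Hes1*, *Robo4*, *Cldn5* and *Gm37587* are named as well. No molecular identifiers were used, so counts include amplification copies.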

Additional observations from a re-analysis of the deposited data

How the results depend on the processing

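Over 57 results, 222 of 237 alternative values kept their side of the threshold, and a called value among them kept its direction. The calls of *Sox17* in ECs, all calls of ECs against HCs, MCs and SNS cells, and the 3 ratios held under each alternative run for them. The tests of the order per length did too, although with the longest transcript *Sox17* was not below *Sox7* in every EC pool. Relative to the main values given above, ERCC size factors took *Sox18* in ECs to -0.69 (adjusted p = 0.000121) and *Sox7* to 0.43 (0.0694), and the *Sox18* difference between the GFP effects in ECs and HCs to -1.84 (0.00704). A fit of the 4 EC and HC populations alone gave that difference as -1.06 (0.00871), and the *Sox17* one as 1.26 (0.00613), which DESeq2's Wald test gave as 1.335 (0.0063). *Sox17* passed the count filter of these fits through the EC pools, so both of its values rest on few HC counts. In HCs *Sox18* passed with DESeq2 size factors at 1.22 (0.00861) and with DESeq2's Wald test at 1.23 (0.00388). Under ERCC size factors, where both genes of a pool are divided by the same spike-in total, 6 correlations passed by Pearson's r. In GFP+ ECs these were *Sox7* with *Sox17* (r = 0.74), *Sox17* with *Sox18* (0.66) and *Dll4* with *Sox7* (0.76). In GFP- ECs they were *Sox7* with *Sox17* (0.68), *Sox7* with *Sox18* (0.70) and *Sox17* with *Sox18* (0.78). By Spearman's rho only *Sox7* with *Sox17* in GFP+ and *Sox17* with *Sox18* in GFP- ECs passed (permutation adjusted p = 0.00372 each). *Dll4* with *Sox7* in GFP+ ECs fell to r = 0.53 without the 2 pools farthest from the *Dll4* median. On the TMM scale the r of this pair was 0.14 (permutation adjusted p = 0.804). The cause of these changes was not tested. Without the pools against their label the *Sox18* difference between the GFP effects in ECs and SNS cells was called at 3.46 (0.00994). That value rests on few SNS counts. Without these pools 840 genes were called higher and 745 lower in GFP+ MCs, against 354 and 344 with them, and 773 and 858 in SNS cells, against 325 and 300. No paired analysis was possible because the column headers carry no pool number. Depth limits what can be said of HCs, MCs and SNS cells, where between 0 and 11 pools of a population reached 10 counts of a member.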
